A study of Mus musculus with 18 samples.

Results

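Cst7, which encodes cystatin F, was described with 7 genes known from cytotoxic lymphocytes: Nkg7, Ccl5, Cd3d, Cd3g, Gzmb, Ctsw and Il2rb. The 8 genes were taken by name from the 2 deposited expression tables, joined on gene ID, out of 23038 genes in all. The set was chosen by its RPKM values in these 6 columns as earlier work on them had shown, with Cst7 in the lead, so every value below is a description and carries no test.

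Haematopoietic stem cells (HSCs) were sorted from the bone marrow of adult C57BL/6 mice as Lineage-, Sca1+, cKit+, CD150+, CD48- cells, 3000 per sample, so the gate removes cells bearing mature lineage antigens. Mice were either wild-type or Mettl3 fl/fl with Mx1-cre, and both genotypes received 5 injections of 10 µg pIpC and were killed 10 days after the last one. pIpC raises interferon, which switches on the Mx1 promoter in many cell types, so deletion of Mettl3, the catalytic subunit of the N6-methyladenosine (m6A) writer, is not limited to HSCs, and the wild-type cells saw the same agent; whether the wild-type mice carried Mx1-cre is not given in the sources used here. Polyadenylated RNA was kept as input or incubated with 1.25 µg of an anti-m6A antibody and divided into an unbound and an m6A-tagged fraction, which makes 6 groups of 3 libraries.

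Each group was available as 1 RPKM value per gene (reads per kilobase of its length and 1e6 reads, written M below). That value is the authors' average over 3 libraries, each with a single extra read put on every gene. No spread between libraries comes with such a mean. For genes with few reads the separate libraries could be solved from the decimals of the mean, and those libraries are listed by depth, from 37.22 M effective reads for the deepest to 9.42 M for the shallowest. Mettl3 was at 36.4, 33.2 and 36.1 RPKM in the wild-type input, unbound and m6A-tagged groups and at 19.6, 11.2 and 17.4 RPKM in the Mettl3-deficient ones. Its transcript was lower in all 3 Mettl3-deficient groups and was not lost; the deleted exons cannot be told from a value for the whole gene.

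Cytotoxic lymphocytes kill by releasing granules that hold perforin and granzymes. Granzymes are made as inactive proenzymes and are trimmed by cathepsin C, a cysteine protease that cystatin F restrains, so Cst7 encodes a brake on the granule machinery. Cystatin F is also made by several myeloid cells. T cells in addition carry the CD3 subunits, which transmit the signal of the T cell receptor, and they respond to IL-2 and IL-15 through the receptor chain encoded by Il2rb.

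Cst7 (gene ID 13011) lies on chromosome 2 from 150570415 to 150578944 and Nkg7 (72310) on chromosome 7 from 43437138 to 43438246. Ccl5 (20304) spans 83525778 to 83530518 of chromosome 11, Ctsw (13041) spans 5465043 to 5468628 of chromosome 19, Gzmb (14939) spans 56258836 to 56262334 of chromosome 14 and Il2rb (16185) spans 78479256 to 78511621 of chromosome 15. Cd3g (12502) and Cd3d (12500) are neighbours on chromosome 9, at 44969572 to 44980431 and 44981769 to 44987052, with 1337 bases between them. Positions are RefSeq gene spans on GRCm38, the assembly that mm10 names.

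RefSeq promoter windows were at hand for 5 of the 8 genes. Those of Cst7, Nkg7 and Cd3d are shown because these 3 genes were at least 2-fold lower in the Mettl3-deficient input than in the wild-type one. Each line gives the 250 bases before the start site used by the RefSeq table (GRCm38.p6, plus strand, 5′ to 3′), at chr2:150570165-150570414, chr7:43436888-43437137 and chr9:44981536-44981785. Capitals mark a RUNX motif (TGTGGT or, on the other strand, ACCACA) or an ETS motif (AGGAAG or CTTCCT); the 2 motifs do not overlap.
Cst7: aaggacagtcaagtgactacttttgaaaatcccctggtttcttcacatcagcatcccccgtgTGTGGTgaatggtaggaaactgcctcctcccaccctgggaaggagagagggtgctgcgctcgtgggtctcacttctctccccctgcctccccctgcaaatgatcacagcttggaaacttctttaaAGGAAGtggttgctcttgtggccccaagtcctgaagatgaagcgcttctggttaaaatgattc
Nkg7: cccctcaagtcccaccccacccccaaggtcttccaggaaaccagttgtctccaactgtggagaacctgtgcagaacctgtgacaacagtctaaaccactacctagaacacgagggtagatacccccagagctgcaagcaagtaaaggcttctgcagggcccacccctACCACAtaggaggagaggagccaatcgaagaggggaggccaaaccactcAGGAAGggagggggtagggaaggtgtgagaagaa
Cd3d: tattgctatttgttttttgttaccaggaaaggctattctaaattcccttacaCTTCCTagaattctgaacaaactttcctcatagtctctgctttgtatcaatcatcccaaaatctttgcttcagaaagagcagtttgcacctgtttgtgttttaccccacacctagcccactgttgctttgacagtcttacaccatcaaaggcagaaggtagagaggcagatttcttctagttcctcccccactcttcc
The Cst7 window held TGTGGT beginning 188 bases and AGGAAG beginning 63 bases before the start. In the Nkg7 window ACCACA began 83 bases and AGGAAG 34 bases before it, and the Cd3d window held CTTCCT at 198 bases and no RUNX motif. A GATA motif (AGATAA or TTATCT), searched for in the same way, was in none of the 3 windows. Of the 2 windows not shown, that of Cd3g held 1 GATA motif and that of Gzmb 2 RUNX motifs, beginning 93 and 34 bases before the start. Of 32851 mouse promoter windows of this length, 14% held the RUNX motif, 29.5% the ETS motif and 9.99% the GATA motif on either strand, so the matches are common ones and describe letters alone.

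The genes fell into a measured and a nearly silent set. Cst7, Nkg7, Ccl5, Cd3d and Ctsw averaged 1 RPKM or more over the 6 groups, as did 11367 of the 23038 genes. Nkg7 ranked 652nd by mean level among all genes, Ctsw 2461st, Ccl5 3927th, Cst7 4246th and Cd3d 6445th. Cd3g, Gzmb and Il2rb stayed below that minimum and ranked 14492nd, 13988th and 12977th. Cd3d reached the minimum through its wild-type groups, so that it differs between genotypes is partly fixed by the minimum.

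**Figure D1:**
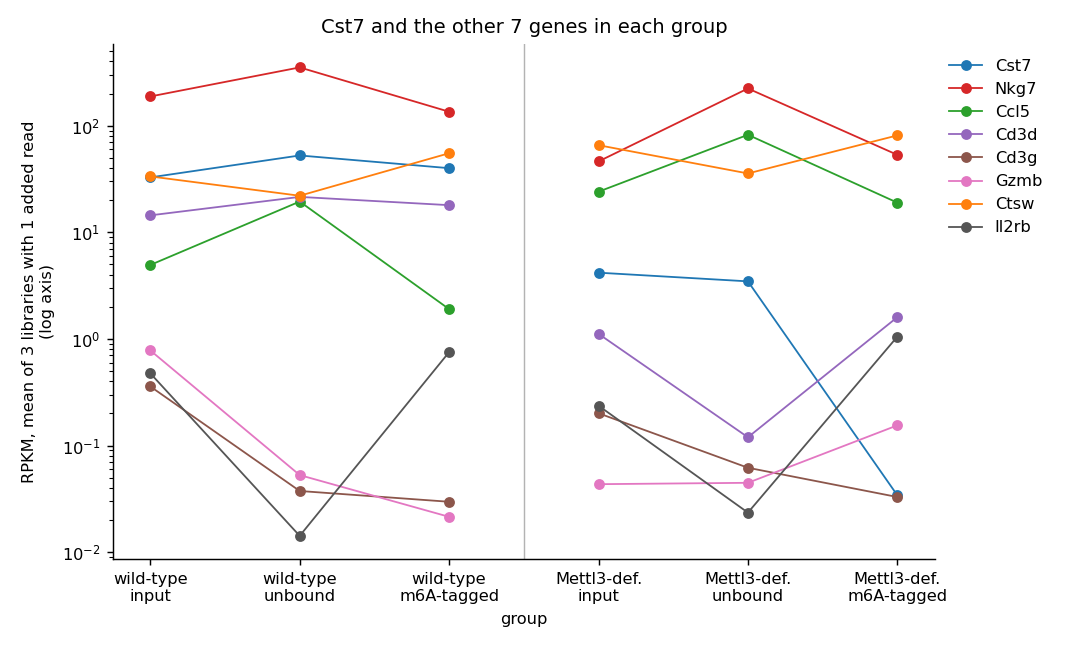
RPKM of the 8 genes (log axis) in the 6 groups, each point the authors' mean of 3 libraries with 1 added read; lines join the fractions of 1 genotype. Nkg7 is the highest of the 8 in all groups but the Mettl3-deficient input and m6A-tagged ones, where Ctsw lies above it, and Cst7 drops to 0.0342 RPKM, what a gene with 0 reads is given, for Mettl3-deficient m6A-tagged RNA.

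Wild-type Cst7 levels were 32.7 RPKM for input, 52.5 for unbound and 39.9 for m6A-tagged RNA. The corresponding Mettl3-deficient levels were 4.18, 3.47 and 0.0342 RPKM. The 3 wild-type groups thus lay together at the top of the order, the Mettl3-deficient input and unbound groups followed, and the Mettl3-deficient m6A-tagged group stood last. That last value is what the added read alone gives for a gene of 986 bases.

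The 3 Mettl3-deficient m6A-tagged libraries held no Cst7 read among 33.59, 30.56 and 25.89 M effective reads. A floor of 3 reads over that group allows at most 0.0333 reads per M. The Mettl3-deficient input libraries held 79, 183 and 12 reads, from the deepest to the shallowest, which is 2.63, 8.29 and 1.27 reads per M (mean 4.06 ± 3.72, SD, n = 3). Each of the 3 input libraries was therefore above each of the 3 m6A-tagged ones, and the m6A-tagged group was at least 122-fold lower. Of 1926 genes with solved reads and at least 20 of them in this pair of groups, 2.65% lay lower in all 3 m6A-tagged libraries. That share covers only genes with some group free of reads, since their length was read from that group. For Cst7 this was the m6A-tagged group itself, so lower was the only outcome without overlap open to it. The share is therefore no measure of how unusual Cst7 is. The bound rests in part on 1 library, for it was at least 58.5-fold without the second input library, which held 66.8% of the reads.

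The Mettl3-deficient unbound libraries held 208, 34 and 0 Cst7 reads, or 7.63, 2.44 and 0 reads per M (mean 3.36 ± 3.90, SD, n = 3). One unbound library without a read thus overlapped with the m6A-tagged group, which was at least 101-fold lower over its mean and at least 36.6-fold lower without the deepest unbound library. Unbound and input overlapped as well, and their ratio of 0.826 lay within the spread between libraries. Its log2 value ran from -1.73 to 0.78 as single libraries were left out, so its direction turned.

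Wild-type Cst7 had too many reads to be assigned to single libraries, with at least 2955 in the input, 3861 in the unbound and 3629 in the m6A-tagged group among the solutions found. Its means without the added read were 32.2, 51.8 and 39.3 reads per M. The m6A-tagged level was 1.22 times and the unbound level 1.61 times that of the input, with no spread to set against these ratios. The 3 neighbours at the top of the order therefore cannot be ranked beyond their error.

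Between genotypes Cst7 was lower in each fraction of the Mettl3-deficient cells. On reads per M the difference was 7.93-fold in input, 15.4-fold in unbound and at least 1181-fold in m6A-tagged RNA. Without the second Mettl3-deficient input library the input difference was 16.5-fold, and without the deepest Mettl3-deficient unbound library the unbound difference was 42.4-fold. Leaving out the shallowest library of the same group made them 5.91-fold and 10.3-fold. The ratio of m6A-tagged to input RNA, as log2((RPKM + 1)/(RPKM + 1)), was 0.28 for wild-type and -2.33 for Mettl3-deficient cells, a genotype difference of -2.61. Over all genes compared, 5.44% had a genotype difference in this ratio at least 2-fold to the lower side. In bulk RNA, fewer cells that express a gene and less of its RNA per cell cannot be told apart.

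**Figure D2:**
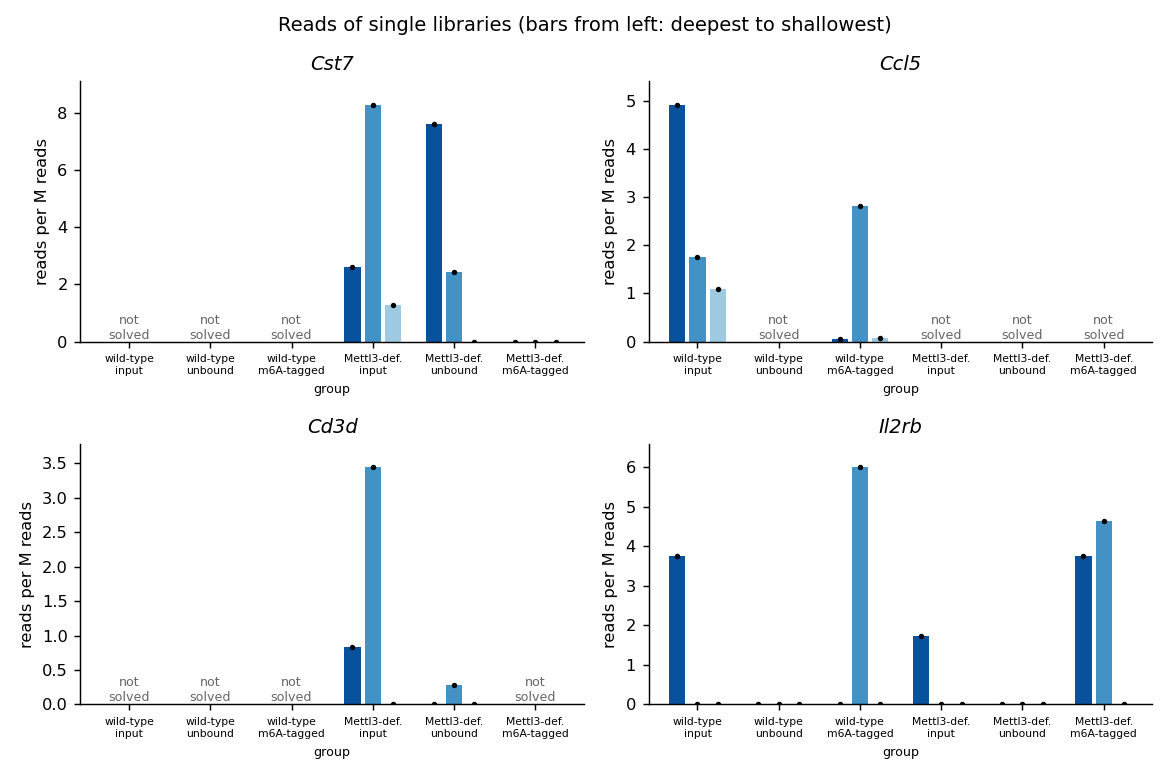
Reads per M effective reads in single libraries for Cst7, Ccl5, Cd3d and Il2rb; within a group the bars run from the deepest to the shallowest library and "not solved" marks groups whose reads could not be assigned. The Cst7 bars reach 8.29 in Mettl3-deficient input and are at 0 in all 3 Mettl3-deficient m6A-tagged libraries, while the Il2rb reads sit in 1 library in 3 groups and in 2 libraries in another.

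The authors' deposited table for Mettl3-deficient cells carries a note on this gene. It names Cst7 and Chchd2, which encodes a mitochondrial protein, as the 2 genes significant in elution against input but not in flow-through against input. Chchd2 had Mettl3-deficient levels of 284 RPKM (input), 750 RPKM (unbound) and 92.2 RPKM (m6A-tagged). Its log2 values were -1.61 for m6A-tagged and 1.40 for unbound against input, so the unbound level of Chchd2 was above its input, whereas that of Cst7 was close to its input.

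Over the 6 groups, the log2(RPKM + 1) values of 12 of 6294 genes averaging 10 RPKM or more followed that of Cst7 with a Pearson r of at least 0.95. The closest 5 were Snhg5 (r = 0.991), Rap1a (0.980), Mad2l1 (0.969), Mir703 (0.969) and Ly6c2 (0.965). These coefficients rest on 6 points, and the 3 fractions of a genotype share their cell samples. Ly6c2, a surface antigen gene, had the widest range of the 5, with 90.7, 131 and 120 RPKM in the wild-type input, unbound and m6A-tagged groups and 6.15, 8.90 and 4.07 RPKM in the Mettl3-deficient ones. Among the other measured genes of the set the coefficient was 0.87 for Cd3d, 0.69 for Nkg7, -0.57 for Ccl5 and -0.69 for Ctsw, so the set did not share the pattern of Cst7.

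Cd3d encodes the delta subunit of CD3. It was at 14.4, 21.5 and 18.0 RPKM in wild-type input, unbound and m6A-tagged RNA and at 1.12, 0.120 and 1.60 RPKM in the Mettl3-deficient groups. The 3 wild-type values were all above the 3 Mettl3-deficient ones. The Mettl3-deficient input libraries held 25, 76 and 0 reads (mean 1.42 ± 1.80 reads per M, SD, n = 3) and the unbound libraries 0, 4 and 0, so 3 of these 6 libraries had reads. These reads rest on a length of 1330 bases, the only one up to 1500 that gave whole reads in these 2 groups. At that length the Mettl3-deficient m6A-tagged value had no whole-read solution, so the Cd3d reads are less certain than those of Cst7. The log2 difference from wild-type was -2.86 in input, -4.33 in unbound and -2.87 in m6A-tagged RNA. The m6A-tagged to input ratio had a log2 value of 0.30 in each genotype with 1 RPKM added, and on reads per M without the added read it was 1.25 for wild-type and 1.47 for Mettl3-deficient cells.

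Cd3g, its neighbour and partner in the complex, showed next to nothing. The wild-type input value was 0.359 RPKM, and the wild-type unbound and m6A-tagged libraries held no read, which allows at most 0.0383 and 0.0303 reads per M. In Mettl3-deficient cells 13 reads were in the deepest input library and none in the other 8 libraries. Cd3e, the subunit that pairs with both, had no read in any of the 18 libraries.

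Nkg7 encodes a membrane protein of cytotoxic granules. Its wild-type levels were 188 RPKM for input, 352 for unbound and 135 for m6A-tagged RNA, and its Mettl3-deficient levels were 46.2, 223 and 53.3 RPKM. The unbound group was the highest of the 3 fractions in both genotypes. Against input, unbound Nkg7 had a log2 difference of 0.90 for wild-type and 2.25 for Mettl3-deficient cells, and against unbound the m6A-tagged level had one of -1.37 and -2.05. Between genotypes the log2 difference was -2.00 in input, -0.65 in unbound and -1.33 in m6A-tagged RNA. The unbound difference was thus within 2-fold while the other two passed it. Its reads could not be assigned to libraries, so no spread stands behind these differences.

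Ccl5 encodes a chemokine that draws lymphocytes and monocytes. It went the other way from Cst7 between genotypes, at 4.94, 19.4 and 1.90 RPKM in wild-type input, unbound and m6A-tagged RNA and at 24.0, 82.1 and 19.0 RPKM in the Mettl3-deficient groups. The log2 difference between genotypes was 2.08 in input, 2.02 in unbound and 2.78 in m6A-tagged RNA. As with Nkg7, unbound was the highest fraction, with a log2 difference from input of 1.78 for wild-type and 1.73 for Mettl3-deficient cells. The wild-type input libraries held 183, 59 and 31 Ccl5 reads (mean 2.59 ± 2.04 reads per M, SD, n = 3) and the wild-type m6A-tagged libraries 2, 95 and 2 (mean 0.981 ± 1.59). These 2 groups overlapped, 1 library held 96.0% of the m6A-tagged reads, and the log2 difference of -1.03 between them did not exceed the spread between libraries. The gene length behind these reads, 531 bases, was the shortest of those up to 1500 that gave whole reads in 3 groups. Lengths of 1062 and 1422 bases did so as well, and the reads in Mettl3-deficient input, 1 of the 3 groups, were not settled. The Ccl5 reads are therefore less certain than those of Cst7. Reads were settled in no Mettl3-deficient group, so no spread stands behind the genotype differences of Ccl5.

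Ctsw encodes cathepsin W, a cysteine protease of natural killer (NK) and cytotoxic T cells. It was at 33.4, 22.0 and 55.2 RPKM in wild-type input, unbound and m6A-tagged RNA and at 65.6, 35.6 and 81.0 RPKM in the Mettl3-deficient groups. Unlike Nkg7 and Ccl5, it had m6A-tagged as the highest and unbound as the lowest fraction in both genotypes. Against unbound, the m6A-tagged level had a log2 difference of 1.29 for wild-type and 1.16 for Mettl3-deficient cells. The medians over all genes compared were 0.65 and 0.78, so this direction is not particular to Ctsw. With median-ratio scaling the Mettl3-deficient value of Ctsw was 0.87 and the median 0.55. Between genotypes Ctsw was higher in each Mettl3-deficient group by less than 2-fold, with log2 differences of 0.95, 0.67 and 0.55 in input, unbound and m6A-tagged RNA, and the first of these was past 2-fold at 1.02 with median-ratio and 1.01 with upper-quartile scaling.

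Gzmb encodes granzyme B, the protease that cytotoxic granules deliver. It was at 0.781 RPKM in wild-type input. The wild-type unbound libraries held 3 reads, all in the deepest one, and the Mettl3-deficient m6A-tagged libraries 17, all in the second. The wild-type m6A-tagged, Mettl3-deficient input and Mettl3-deficient unbound libraries held no read, which allows at most 0.0303, 0.0487 and 0.0562 reads per M.

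Il2rb encodes the receptor chain shared by IL-2 and IL-15, and its reads came from 1 or 2 libraries of a group. The wild-type input held 140 reads in its deepest library and none in the other two. In wild-type m6A-tagged RNA 202 reads were in the second library, and in Mettl3-deficient input 52 were in the deepest. Mettl3-deficient m6A-tagged RNA held 126, 142 and 0 reads, and both unbound groups held none, which allows at most 0.0383 reads per M for wild-type and 0.0562 for Mettl3-deficient unbound RNA. Groups of libraries overlapped in every Il2rb comparison. Reads in 1 library alone were common at such levels, for among solved genes with 50 to 300 reads in a group the share with all reads in 1 library was 25.4% in wild-type input, 63.9% in wild-type m6A-tagged and 10.6% in Mettl3-deficient input RNA.

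Counted over the 5 measured genes, 3 were at least 2-fold lower and 1 was higher in Mettl3-deficient than in wild-type input, where 10.1% of the 11367 genes compared were lower and 2.3% higher. The lower ones were Cst7, Nkg7 and Cd3d and the higher one was Ccl5. In unbound RNA 2 of the 5 were lower (21.8% of all genes) and 1 was higher (15.9%), and in m6A-tagged RNA 3 were lower (12.7%) and 1 was higher (6.44%). The median log2 difference of the 5 was -2.00 in input, -0.65 in unbound and -1.33 in m6A-tagged RNA, beside -0.13, -0.07 and -0.15 over all genes compared. The 3 comparisons draw on RNA of the same cell samples, and since the genes were chosen with these values known, nothing is read from the counts.

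**Figure D3:**
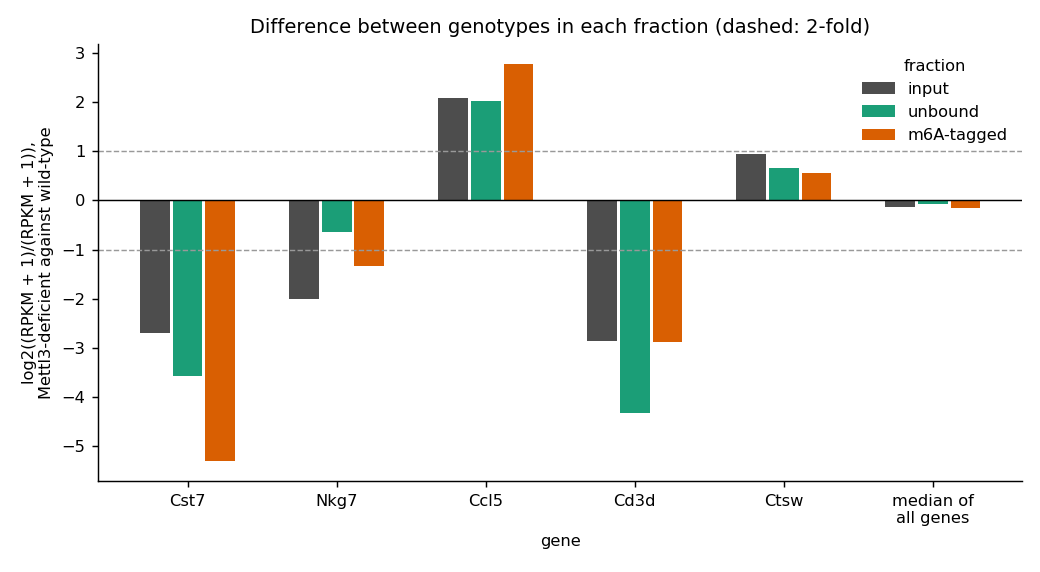
Log2((RPKM + 1)/(RPKM + 1)) of Mettl3-deficient against wild-type cells for the 5 measured genes and the median of the 11367 genes compared, by fraction; dashed lines mark 2-fold. Cst7 and Cd3d lie below the lower line in all 3 fractions and Ccl5 above the upper one, while Ctsw stays within the lines.

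Among fractions, the count of genes past 2-fold was small for m6A-tagged against input. Of the 5 genes, Ccl5 was lower in wild-type cells (5.55% of all genes were lower and 5.73% higher) and Cst7 in Mettl3-deficient cells (1.21% lower and 2.25% higher, or 1.67% and 1.38% with median-ratio scaling). Both calls were lost when 5 RPKM was added in place of 1. Against unbound RNA, m6A-tagged Nkg7 and Ccl5 were lower and Ctsw higher in wild-type cells, where 13.3% of all genes were lower and 42.7% higher. In Mettl3-deficient cells Cst7, Nkg7 and Ccl5 were lower and Cd3d and Ctsw higher, where 10.6% of all genes were lower and 43.5% higher. Unbound against input, Ccl5 was higher in wild-type cells (3.3% of all genes, or 0.86% with upper-quartile and 4.73% with median-ratio scaling), and Nkg7 and Ccl5 were higher in Mettl3-deficient cells (11.9%). With 1 RPKM added, 0 of the 5 were 2-fold lower in unbound than in input RNA, while 37.2% of all genes were so for wild-type and 37.7% for Mettl3-deficient cells. With upper-quartile scaling Cd3d and Ctsw were lower there in Mettl3-deficient cells, Cd3d just past the 2-fold limit and Ctsw at a log2 value of -1.13. Cd3d was also called lower there with 0.1 RPKM added. On reads per M at its searched length, its Mettl3-deficient unbound level was 14.9-fold below input. That ratio came from 4 reads in 1 library against 101 in 2. Unbound comparisons share the input or the m6A-tagged group, so they do not count as separate results.

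The name cytotoxic T cell did not hold for these samples. Of 22 further genes of cytotoxic and NK cells in the tables, 3 averaged 1 RPKM or more, and Srgn, the proteoglycan core of many granule types, made up most of the summed level of 504 to 1047 RPKM per group. Serpinb9, an inhibitor of granzyme B, was at 13.1 to 18.5 RPKM, and Klrb1c, an NK receptor gene, at 0.440 to 2.72 RPKM. Only Cd8a, Cd8b1, Ifng and Gzmc of the list had no read in any library. Per group, the genes without a read numbered from 7 of 22 in wild-type input to 16 in Mettl3-deficient unbound RNA, so most had some reads at a low level. Prf1, which encodes perforin, had reads in 2 of the 6 groups and no value above 0.118 RPKM. The 8 genes are therefore named here after Cst7 and not after a cell type.

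T cell genes gave the same picture. Of 19 in the tables, 3 averaged 1 RPKM or more: Lat, an adaptor also used by platelets and mast cells, at 101 to 255 RPKM, the kinase gene Lck at 2.85 to 14.4 RPKM, and Cd247, the zeta chain of the receptor, at 0.0546 to 2.74 RPKM. Only Cd3e, Bcl11b and Txk of the list had no read in any library. The genes without a read numbered 4 of 19 in wild-type input and 12 in wild-type unbound RNA, the lowest and highest counts of the groups. The summed level of the list was 154, 249 and 143 RPKM in wild-type input, unbound and m6A-tagged RNA and 114, 264 and 153 RPKM in the Mettl3-deficient groups. None of the 3 compared genes differed 2-fold between genotypes in input (10.1% of all genes compared were lower and 2.3% higher), where the median log2 difference was -0.35. In unbound RNA none did so either (21.8% lower and 15.9% higher). In m6A-tagged RNA 1 of the 3, Lck, was higher in Mettl3-deficient cells, at a log2 difference of 1.81 (12.7% lower and 6.44% higher).

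The relatives and partners of the genes were described in the same way. Of 15 cystatin genes, 4 were compared. Cst3, which encodes the widespread cystatin C, had an input level of 479 RPKM with Mettl3 and 353 RPKM without it, and Cstb of 80.6 and 68.5 RPKM. Stfa1 and Stfa2l1, stefins of myeloid cells, had no read in the Mettl3-deficient libraries and stood at 3.18 and 2.24 RPKM in wild-type input. Those were the 2 of 4 that were 2-fold lower in input, and 0 were higher (10.1% and 2.3% of all genes compared). Both reached the minimum of 1 RPKM through their wild-type groups, so that they were lower is partly fixed by the minimum. Cst7, itself not in this list, was chosen with its values known, so it is not counted with them.

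Among 13 compared genes of cysteine and other cathepsins, 1 was 2-fold lower and 0 were higher in Mettl3-deficient input. Over all genes compared, 10.1% were lower and 2.3% higher there. The lower one was Ctsg, a serine protease gene of neutrophil granules, whose level went from 244 RPKM for wild-type to 18.0 RPKM for Mettl3-deficient input. Ctsd was at 364 and 464 RPKM, Ctsz at 194 and 346 RPKM, and Ctsc, which encodes the protease that trims granzymes, at 19.9 and 32.8 RPKM. Of 7 compared genes of IL-2 and IL-15 signalling, 0 differed 2-fold in input, among them Il2rg, the receptor chain that partners with the product of Il2rb, with input levels of 87.4 RPKM (wild-type) and 172 RPKM (Mettl3-deficient). Jak3 was at 69.1 and 58.1 RPKM and Jak1 at 74.1 and 64.2 RPKM there. In unbound RNA 1 of these 7 was higher and 4 were lower in Mettl3-deficient cells (15.9% and 21.8% of all genes compared).

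Markers of other bone marrow cells moved with the genotype beside Cst7, Nkg7 and Cd3d. Of 9 compared neutrophil and promyelocyte genes, 7 were 2-fold lower and 0 higher in Mettl3-deficient input (10.1% and 2.3% of all genes compared). Their summed level ran from 7153 to 10140 RPKM in the wild-type groups and from 1559 to 2920 RPKM in the Mettl3-deficient ones. S100a8 was at 1148 and 233 RPKM, S100a9 at 945 and 157 RPKM and Camp at 981 and 131 RPKM in wild-type and Mettl3-deficient input. Of 7 compared eosinophil, basophil and mast cell genes, 6 were lower and 0 higher, beside the same shares of 10.1% and 2.3%. The list summed to 843 to 1264 RPKM over the wild-type groups and to 35.2 to 97.8 RPKM over the Mettl3-deficient ones. Prg2, an eosinophil granule protein gene, was at 655 and 5.52 RPKM, Prg3 at 57.5 and 0.826 RPKM and Prss34, a basophil and mast cell protease gene, at 32.9 and 14.1 RPKM in the 2 inputs. Each gene of these 2 lists had reads in both inputs. Their part in the lower Cst7, Nkg7 and Cd3d was not tested.

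**Figure D4:**
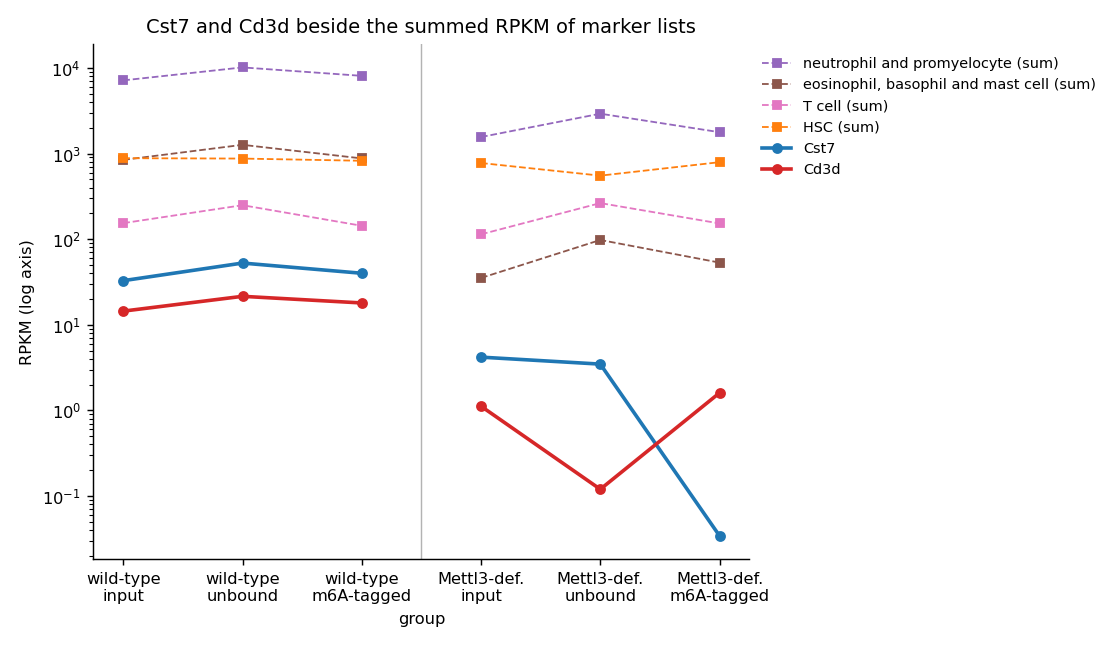
RPKM (log axis) of Cst7 and Cd3d (solid lines) beside the summed RPKM of 4 marker lists (dashed lines) in the 6 groups, each point a value from the authors' means of 3 libraries. The eosinophil, basophil and mast cell sum is 843 RPKM in wild-type input against 35.2 RPKM in Mettl3-deficient input, and the HSC sum is 882 against 775 RPKM.

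Of 5 compared B cell genes, 4 were lower and 0 higher in Mettl3-deficient input (10.1% and 2.3% of all genes compared). Cd79b, at 84.7 and 90.6 RPKM, was the exception and made up most of the sum of 113 RPKM for wild-type and 93.9 RPKM for Mettl3-deficient input. Vpreb1 was at 11.6 and 1.95 RPKM and Cd79a at 5.21 and 0.252 RPKM. Cd79a reached the minimum through its wild-type groups, and the lower B cell genes not named here may have done so too. That such genes were lower is partly fixed by the minimum, so the count of 4 is no separate result for each gene. Of 6 macrophage genes 1 was higher and 1 lower (2.3% and 10.1% of all genes compared). Cd68, the higher one, was at 20.5 and 61.7 RPKM in the wild-type and Mettl3-deficient inputs, C1qb was at 6.88 and 12.7 RPKM and C1qc at 4.17 and 3.88 RPKM, and the macrophage sum was 41.7 RPKM for wild-type and 82.1 RPKM for Mettl3-deficient input. Their part in the higher Ccl5 was not tested. Of 10 HSC genes, 0 differed 2-fold in input, with a median log2 difference of -0.13. Gata2 was at 111 and 151 RPKM and Kit at 165 and 92.4 RPKM, so the markers of the sorted cells were present in both genotypes.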

How the data were processed

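RPKM values were deposited by the authors in 2 tables, 1 per genotype, with 1 column per fraction. The submitters' processing notes name mm10 as build and, by the authors, Picard and edgeR, with neither role nor version; aligner and counter: not given in the sources used here. As their decimals show, each RPKM averages 3 libraries after 1 read was put on every gene of each, in both tables alike. Effective depths and, for genes with few reads, reads per library were solved from the decimals: 23843 of 24710 values tried (96.5%) had exactly 1 whole-read solution and 857 had none, so some counts may not be whole. The effective depths are not whole numbers and may be scaled library sizes. The solver was tested on simulated whole reads, for genes whose length came from a group without reads. That test covered neither counts that are not whole nor the length search used for Cd3d and Ccl5.

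The labels call the 3 samples of a group biological replicates. Log2((RPKM + 1)/(RPKM + 1)) was computed for 9 comparisons over genes averaging 1 RPKM or more, and a 2-fold difference was called higher or lower; the log2 scale understates the change of low genes. Ratios of Cst7 are on mean reads per M without the added read, with a floor of 3 reads over a group at 0, which covers counting error alone. The 8 genes, the gene lists and the rules were chosen with earlier results of these data known. Named besides the 8 are Mettl3, the 3 highest genes by mean in each of the lists and the 5 genes most like Cst7 over the 6 columns; Prf1, Ctsc, Stfa1, Chchd2 and genes without reads were added after their values were seen. The values of 1 gene of the rule and of 1 gene list are not reported here. A mean alone per group leaves no libraries to model, so edgeR, DESeq2 and limma were not run here, although a test had been foreseen had counts been deposited, and p-values are absent. Alternatives were another added value, another minimum, another scaling, single libraries left out and pooled reads. Python 3.11.15, numpy 2.4.6, pandas 2.3.3 and matplotlib 3.10.9 were used.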

Additional observations from a re-analysis of the deposited data

How the results depend on the processing

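Of 93 values recomputed under the alternatives for 18 results, 85 stayed within 1.5 times the count or within the spread between libraries, and 8 moved. No 2-fold difference changed sign, but 3 of the 85 turned the sign of the Cst7 ratio of unbound to input in Mettl3-deficient cells, from a log2 of -0.28 to 0.03 with pooled reads and to 0.31 and 0.78 with a library left out. Adding 5 RPKM in place of 1 left 0 of the genes 2-fold different for m6A-tagged against input in wild-type cells (Ccl5 was lost) and 0 in Mettl3-deficient cells (Cst7 was lost). For m6A-tagged against unbound in Mettl3-deficient cells it left 3, without Cst7 and Cd3d. Upper-quartile scaling raised the count for unbound against input in Mettl3-deficient cells from 2 to 4, by Cd3d and Ctsw. The log2 bound for m6A-tagged Cst7 between genotypes was -10.21, was -10.19 on deposited RPKM, and lay between -9.72 and -9.53 as each Mettl3-deficient m6A-tagged library was left out, since fewer reads raise the floor; without the deepest library the difference was at least 740-fold. Median-ratio scaling moved the median of all genes for m6A-tagged against unbound in Mettl3-deficient cells from 0.78 to 0.55, with Ctsw then within 2-fold there, and took Ctsw past 2-fold between genotypes in input (log2 1.02). No paired analysis was possible because the columns are means and the solved libraries carry no replicate number. DESeq2, edgeR and a likeness over 18 libraries were not run for the same reason. Depth limits Cd3g, Gzmb and Il2rb, whose reads often lay in 1 library. Single libraries of Nkg7, Ctsw and wild-type Cst7 stay unknown. So do those of Cd3d in the wild-type groups and in Mettl3-deficient m6A-tagged RNA, and of Cd3g and Gzmb in wild-type input. For Ccl5, libraries were settled in wild-type input and m6A-tagged RNA alone.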
